A study of Rattus norvegicus with 18 samples.

Results

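Tissue around CaP scaffolds was compared with tissue around PCL scaffolds in rats at week 2 after implantation into a critical-size defect of the radius, a gap too large to heal unaided. PCL is printed polycaprolactone, a slowly degrading polyester, and CaP is the same polymer carrying calcium phosphate microparticles, so the comparison asks what the mineral adds to the polymer in early repair. It holds 6 of the 18 mRNA sequencing libraries of the study, chosen by their labels alone: 3 libraries of CaP and 3 of PCL. The animals of both groups are labelled wild type, and the labels give no strain, sex or age. Both groups share the polymer, the defect and the handling of the tissue: bone within 1 mm of the scaffold was taken, its marrow was treated with a lysis buffer for red blood cells and digested with enzymes, its bone was minced and digested with collagenase, and the released cells were pooled. The other 12 libraries are CaP and PCL at week 6, and the remaining scaffold, ACPC-NP, which carries chitosan nanoparticles with amorphous calcium phosphate, at both weeks. Whether each library is a separate animal is not in the labels. Errors and p-values measure the spread between libraries of a group, pooled over all 18, and part of it may be technical.

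Calcium phosphate is a mineral relative of bone itself. It is known as a surface on which bone can grow, it takes up proteins from tissue fluid, and it can be dissolved by osteoclasts, the bone-resorbing cells that arise from monocytes. A defect next to an implant is filled first by clot, inflammatory cells and marrow, later by cartilage and woven bone. The marrow that borders such a defect also makes red cells, granulocytes, platelets and B cells, and RNA of all of these lineages was in the material sequenced.

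The 6 libraries held 23627362 to 25622793 counts each. Defining genes of the labelled tissue were present in all 6: Ptprc, the pan-leukocyte antigen, ran from 699.7 to 926 CPM (counts per library put on one scale of depth), Col1a1, the main collagen of bone, from 10960.1 to 25367, Ctsk, the collagenase of osteoclasts, from 76.2 to 199.8, and Slc4a1, the anion exchanger of red cells, from 3148 to 5595. Of genes of skin, Krt5 and Krt14 lay between 0 and 0.0394 CPM, but others were present. In a keratinocyte list of 10 genes, 6 were below the filter on low counts and 3 were tested. The tested genes summed to 24.7 to 44.7 CPM around CaP and 22.6 to 43.9 around PCL. Libraries of the same scaffold differed from each other about as much as libraries of different scaffolds did. The root mean square difference in log2 CPM over all genes tested was 0.470 to 0.609 for the 6 pairs within a scaffold (median 0.544) and 0.442 to 0.629 for the 9 pairs across scaffolds (median 0.486). The first principal component held 38.2% of the variance and placed PCL replicate 2 (33.2) and CaP replicate 3 (26.7) at one end and PCL replicate 1 (-25.7) and CaP replicate 1 (-24.6) at the other. PCL replicate 2 had the most cartilage RNA and the least erythroid RNA of the 6, and medians without it are given beside the groups that turned or shrank most.

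No gene passed the test between CaP and PCL at week 2. EdgeR's quasi-likelihood test called 0 of 11814 genes higher and 0 lower at a Benjamini-Hochberg adjusted p under 0.05 (0% called in each direction), and the smallest adjusted p was 0.9999. DESeq2 and limma's voom with quality weights also called 0. At an unadjusted p under 0.05, edgeR found 183 genes (1.55%), of which 128 were higher (1.08%) and 55 lower (0.466%) around CaP, where 591 would be expected by chance. DESeq2 found 213 at that level and voom 532. Each of these counts is below 591, so the p-values ran larger than a uniform spread would give. The counts are thus no measure of how little differed. That of edgeR was 279 without ACPC-NP week 2 replicate 3, a library outside the comparison. The ranges of the 2 groups did not overlap for 365 genes higher around CaP (3.09%) and 346 lower (2.93%), or 6.02% of genes together. The median log2 fold change over all genes was 0.0086, and 52.9% of genes lay above 0.

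The intervals hold, gene by gene, the differences compatible with 3 libraries a side. They are not adjusted for the number of genes tested, so some can miss the true value. For 8807 genes (74.5%) the whole 95% confidence interval of the fold change lay within 2-fold in either direction, and for 6115 genes (51.8%) within 1.5-fold. Among the 8066 genes with a mean of at least 10 CPM, 7349 (91.1%) were within 2-fold. The remaining genes, mostly of low level or with a wide spread between libraries, can hold larger differences that the test with 3 libraries a side did not call. All differences below are log2 fold changes of CaP over PCL ± their standard error, intervals are 95% confidence intervals, levels are CPM in replicates 1, 2 and 3 of each scaffold, and counts of genes with p under 0.05 are of unadjusted p from edgeR. None of the genes named passed after adjustment.

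**Figure D1:**
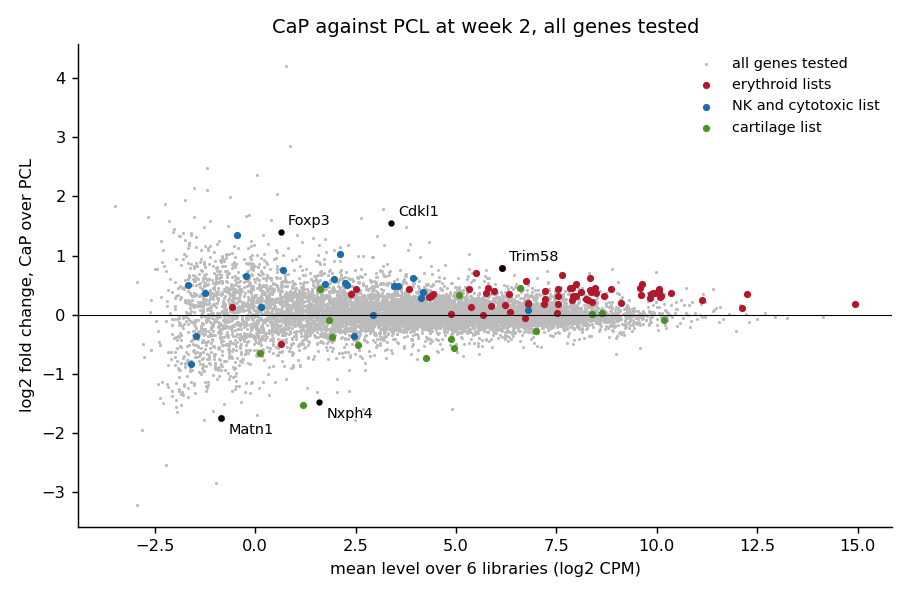
Log2 fold change of CaP over PCL at week 2 (vertical axis) against mean level in log2 CPM over the 6 libraries (horizontal axis), 1 point per gene tested. The erythroid list members (red) lie mostly above 0, at a median of 0.34, across a wide range of levels, the NK and cytotoxic list members (blue) mostly above 0 at low levels, and the cartilage list members (green) spread from -1.74 to 0.46.

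Erythroid genes lay almost all on the same side. Red cell precursors in marrow are driven by the factors Gata1 and Klf1, import iron through the transferrin receptor, build haem in a chain of mitochondrial and cytosolic enzymes, fill with globin, and assemble a membrane skeleton before they lose their nucleus. Of 83 erythroid genes in 4 lists, 15 had no matching symbol, 1 was below the filter on low counts and 67 were tested. Of these, 64 had a log2 fold change above 0, with a median of 0.34 against 0.0086 for all genes, and a range from -0.49 to 0.78. Ranges were separate and higher around CaP for 17 of the 67 (25.4%, beside 3.09% of all genes), 5 had p under 0.05 and 0 were called. The erythroid score, the mean over members of centred log2 CPM, was 0.34, 0.08 and 0.08 in the CaP libraries and 0.05, -0.55 and 0.01 in the PCL libraries. CaP replicate 1 was thus the highest and PCL replicate 2 by far the lowest, while the other 4 lay close together. Members of a list were measured in the same 6 libraries, so counts of members are not independent observations. The lists were also chosen with earlier results of these data known. Without PCL replicate 2 the median was 0.15 with 56 of 67 above 0, and without CaP replicate 1 it was 0.22 with 59 above 0. The material had been treated to lyse red cells, and how completely this worked in each library was not measured. In bulk RNA, fewer cells of a type and less RNA per cell cannot be told apart, here or in the groups that follow.

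Among the erythroid regulators 13 of 14 lay above 0, with a median of 0.29 (0.15 without PCL replicate 2). Of these 14, 5 had separate and higher ranges (35.7%, beside 3.09% of all genes). Trim58, a ubiquitin ligase of late erythroblasts that acts on the motor dynein during loss of the nucleus, stood at 106, 96.5 and 78.7 CPM around CaP and 67, 40.8 and 55.6 around PCL. All 3 CaP libraries were above all 3 PCL libraries, with a difference of 0.78 ± 0.23 (95% interval 0.28 to 1.28), and leaving out each of the 6 libraries in turn gave 0.61 to 0.95. Trim10, another erythroid member of the TRIM family, stood at 151, 124 and 125 against 109, 56.1 and 104 (0.57 ± 0.26, 95% interval 0.02 to 1.12), again without overlap. Hemgn, a nuclear regulator of blood progenitors, differed by 0.51 ± 0.27 and Klf1, the master factor of the lineage, by 0.45 ± 0.25. Klf1 stood at 319, 242 and 281 against 235, 139 and 242, so that the lowest CaP library and the highest PCL library were both at 242 to 3 digits. Without PCL replicate 2 its difference was 0.23. Gata1 was the regulator below the filter on low counts: it was listed at 0 counts in all 18 libraries, beside abundant genes of the same lineage. Whether the counting could detect it was not tested, so the 0 is not read as absence of the factor.

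In the haem and iron list 19 of 20 members lay above 0 (median 0.31, or 0.13 without PCL replicate 2), and 18 of the 20 intervals were within 2-fold. Tfrc, the transferrin receptor through which erythroblasts take up iron, stood at 1016, 1061 and 1209 CPM against 780.3, 765 and 993. These ranges did not overlap, and the difference was 0.37 ± 0.13 (95% interval 0.09 to 0.65). Slc25a37, mitoferrin, which carries iron into mitochondria, differed by 0.43 ± 0.22 without overlap. Abcb10, a mitochondrial transporter that partners it, differed by 0.44 ± 0.21, and Ppox, an enzyme near the end of the haem chain, by 0.40 ± 0.20, both with ranges that overlapped. Alas2, the enzyme that starts haem synthesis in red cells, stood at 2353, 2850.0 and 2243 against 2707, 1318 and 2276, and only PCL replicate 2 was low. Its difference of 0.24 ± 0.25 was -0.0056 without that library.

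Globins and late erythroid genes had a median of 0.30, with 14 of 15 above 0 and 2 separate (beside 3.09% of all genes). Without PCL replicate 2 the median was 0.08 with 12 of 15 above 0. Hbb, the beta globin, took 2.63% to 4.47% of the counts in the CaP libraries and 1.89% to 4.30% in the PCL libraries, and these ranges overlapped almost fully (log2 difference 0.17). Xpo7, a nuclear exporter used while erythroblast nuclei condense, differed by 0.43 ± 0.24 without overlap, and Ahsp, the chaperone of free alpha globin, by 0.45 ± 0.27 with overlap.

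The membrane and skeleton list was the most uniform of the 4, with 18 of 18 members above 0, a median of 0.36 and 7 separate (38.9%, beside 3.09% of all genes). Without PCL replicate 2 the median was 0.20 with 17 above 0. Kel, the Kell blood group protease, stood at 459, 376 and 387 CPM against 293, 187 and 318, a difference of 0.62 ± 0.24 (95% interval 0.10 to 1.13). Every CaP library was above every PCL library. Epb42, a skeleton protein that binds the anion exchanger, differed by 0.51 ± 0.25, Rhd, the Rhesus blood group protein, by 0.46 ± 0.24, and Slc4a1, that exchanger, by 0.34 ± 0.26, all with separate ranges. For Slc4a1 the CaP libraries stood at 5595, 5575 and 5296 and the PCL libraries at 4948, 3148 and 4884, with PCL replicate 2 well below the other 5.

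The start-site regions of erythroid members with separate ranges are shown as sequence background. Whether their motifs bear on the difference between the scaffolds was not tested. RefSeq's table for assembly GRCr8 holds windows for 48 of the 67 members, and the 4 with the smallest p that have 1 window each are printed over the 250 bases before the gene start, in the gene's own direction. Trim58 lies at chr10:43523154-43523403 on the plus strand, Tfrc at chr11:81690319-81690568, Kel at chr4:71551774-71552023 and Trim10 at chr20:1703470-1703719, these 3 on the minus strand. Capitals mark GATAA, the core bound by GATA factors, and CCNCNCCC, a form bound by Klf1 and related factors, each searched on both strands, and overlapping matches of CCNCNCCC run together.
Trim58: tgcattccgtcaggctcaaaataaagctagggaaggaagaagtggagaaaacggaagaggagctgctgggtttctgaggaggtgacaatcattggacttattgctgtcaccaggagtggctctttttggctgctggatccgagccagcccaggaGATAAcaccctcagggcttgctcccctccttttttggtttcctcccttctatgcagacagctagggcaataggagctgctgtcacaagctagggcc
Tfrc: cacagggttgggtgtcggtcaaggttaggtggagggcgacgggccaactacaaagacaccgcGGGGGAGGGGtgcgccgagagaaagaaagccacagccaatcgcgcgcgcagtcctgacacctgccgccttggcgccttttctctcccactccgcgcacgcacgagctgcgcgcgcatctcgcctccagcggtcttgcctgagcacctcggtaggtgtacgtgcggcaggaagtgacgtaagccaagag
Kel: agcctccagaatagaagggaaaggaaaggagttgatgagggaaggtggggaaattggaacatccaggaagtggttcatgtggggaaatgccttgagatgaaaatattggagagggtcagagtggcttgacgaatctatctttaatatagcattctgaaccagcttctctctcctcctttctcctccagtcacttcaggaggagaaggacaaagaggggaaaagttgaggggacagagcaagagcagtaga
Trim10: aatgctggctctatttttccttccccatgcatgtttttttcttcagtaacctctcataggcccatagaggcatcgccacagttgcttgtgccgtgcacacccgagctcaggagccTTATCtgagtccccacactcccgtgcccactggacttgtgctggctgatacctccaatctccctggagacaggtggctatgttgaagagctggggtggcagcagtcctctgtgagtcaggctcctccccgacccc
Trim58 has 1 GATAA match, starting 96 bases before the gene start, and Trim10 has 1, on the other strand, starting 135 bases before it. Tfrc has 2 overlapping CCNCNCCC matches on the other strand, and Kel has neither motif in this window. GATAA was found in 17 of 50 erythroid windows (34%), in 14.9% of 9372 windows of genes tested and in 23.5% of all 33469 windows. CCNCNCCC was found in 35 of the 50 (70%), in 63.1% of the windows of genes tested and in 42.8% of all windows. These are matches of letters, not sites, and no binding was measured.

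**Figure D2:**
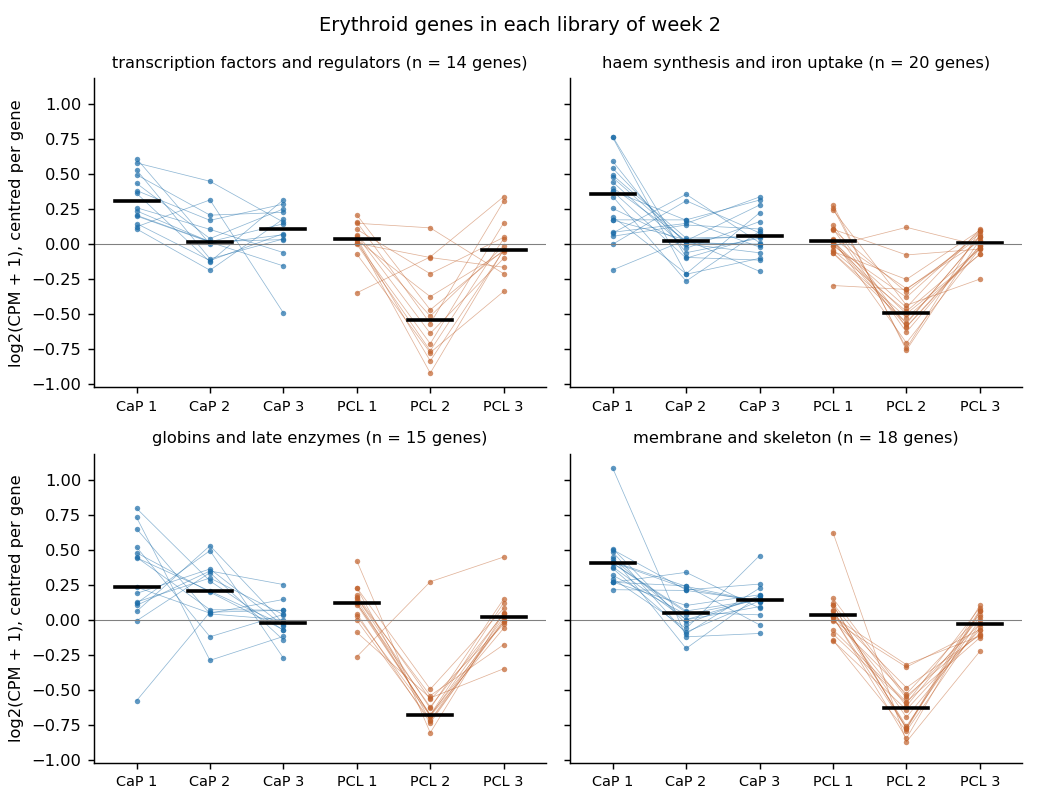
Log2(CPM + 1) of each erythroid gene, centred on its own mean over the 6 libraries (vertical axis), in each library of week 2 (horizontal axis), in 4 panels by role. Thin lines join the values of 1 gene within a scaffold, and black bars are medians over genes. The median of CaP replicate 1 is the highest and that of PCL replicate 2 the lowest in each panel, with the other libraries closer to 0.

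The smallest p of any list member belonged to a lymphoid gene. Foxp3 is the transcription factor that defines regulatory T cells, which restrain other immune cells. It stood at 1.64, 2.43 and 3.23 CPM around CaP and 0.69, 0.99 and 1.08 around PCL. Each CaP library was above each PCL library, and the difference was 1.40 ± 0.31 (95% interval 0.74 to 2.06), or 1.14 to 1.62 with each library left out in turn. At week 6 it was -0.39 ± 0.29, and the differences at the 2 weeks were 1.79 ± 0.42 apart, not past the adjusted threshold. The regulatory T cell and Th2 list as a whole, Foxp3 included, had a median over 9 members of 0.04, with 6 above 0, and of 0.38 without PCL replicate 2. Il2ra, the high-affinity receptor chain for interleukin 2 on these cells, stood at 1.32, 3.14 and 1.3 against 0.881, 2.14 and 1.04, and Gata3, the Th2 factor, at 0.699, 1.8 and 0.828 against 1.49, 1.5 and 1.12. Both overlapped, with differences of 0.50 ± 0.50 and -0.31 ± 0.36, and that of Il2ra ran from -0.06 to 0.99 over left-out libraries.

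NK cells and cytotoxic T cells kill by releasing perforin and granzymes. In their list 17 of 21 members lay above 0 with a median of 0.48, 2 had separate and higher ranges (beside 3.09% of all genes) and 4 had p under 0.05 and were higher (beside 1.08%). Prf1, perforin, stood at 5.18, 8.11 and 5.09 CPM against 2.99, 3.52 and 2.5. The CaP libraries were all higher, by 1.03 ± 0.35 (95% interval 0.27 to 1.78). Gzma, a granzyme, stood at 1.07, 1.21 and 0.868 against 0.383, 0.554 and 0.291 (1.34 ± 0.48, 95% interval 0.33 to 2.36), also without overlap but at about 1 CPM or less. Il2rb, a shared receptor chain for interleukins 2 and 15, differed by 0.62 ± 0.24 and Faslg, the death ligand of killer cells, by 0.75 ± 0.34, with overlap. Gzmb, another granzyme, went the other way at 6.08, 1.71 and 8.16 against 4.94, 7.96 and 7.74 (-0.37 ± 0.56), with CaP replicate 2 lowest. Ncr1, a receptor found on NK cells, stood at 6.66, 4.6 and 3.47 against 3.03, 4.75 and 1.92. CaP replicate 2 had the highest score on this list (0.50), and PCL replicate 2 the highest of its group (0.15). The median was 0.11 without CaP replicate 2 and 0.82 without PCL replicate 2. Of 18 genes that signal to or from cytotoxic cells, 16 lay above 0 (median 0.28), but without CaP replicate 2 only 11 did (median 0.11). Cxcr3, a chemokine receptor of activated T cells, differed by 0.63 ± 0.28 (95% interval 0.04 to 1.23), and Il18, a cytokine that primes NK cells, stood at 8.34, 10.5 and 7.53 against 6.78, 5.07 and 5.7 without overlap.

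T cell genes were mixed. Of 19 members 14 lay above 0, with a median of 0.20, which was 0.02 without CaP replicate 2 and 0.48 without PCL replicate 2. Chains of one receptor complex had opposite signs: Cd3e stood at 7.19, 15.3 and 8.72 CPM against 5.33, 9.66 and 5.16 (0.63 ± 0.32), Cd247 differed by 0.60 ± 0.29, and Cd3g stood at 12.3, 16.5 and 10.8 against 30.2, 26 and 10.8 (-0.76 ± 0.32, 95% interval -1.44 to -0.08). The high values of Cd3g were in PCL replicates 1 and 2 alone, and PCL replicate 3 was at the level of CaP replicate 3. MHC class II genes, which present peptides to helper T cells, lay above 0 in 7 of 7 members (median 0.31), but CaP replicate 2 carried this. RT1-Da stood at 263, 437 and 299 against 239, 227 and 262, and without CaP replicate 2 the list median was 0.05. Dendritic cell genes had a median of 0.16, or 0.08 without PCL replicate 1. Zbtb46, a factor of classical dendritic cells, stood at 1.85, 2.09 and 2.52 against 1.15, 1.43 and 1.46 (0.68 ± 0.26, 95% interval 0.13 to 1.23) without overlap, and at week 6 its difference was -0.58 ± 0.26.

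Early B cell genes leaned towards PCL. These cells rearrange their antibody genes in marrow under factors such as Ebf1. Of 14 members 13 lay below 0 (median -0.19, range -0.48 to 0.05), 4 were separate and lower around CaP (beside 2.93% of all genes), and 0 had p under 0.05. Bach2, a factor of B and T cell fate listed under its older symbol RGD1562865, stood at 139.7, 219 and 202 CPM against 247, 275 and 259 (-0.48 ± 0.25). Ebf1 stood at 177, 234 and 224 against 246, 324 and 287 (-0.43 ± 0.24), and Rag1, the recombinase, at 344, 469.5 and 381 against 525, 495 and 524 (-0.37 ± 0.33). In each of these genes the 3 PCL libraries were above the 3 CaP libraries. Leaving out single libraries moved the list median between -0.30 and -0.18. Mature B cell genes (median 0.04) and plasma cell genes (median 0.04) lay near 0, and Ms4a1, the CD20 antigen, stood at 76.8, 138 and 44.4 against 113, 37.4 and 85.3, a spread that was wider within than between the scaffolds.

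Over all genes, those higher around CaP with the smallest p and a mean log2 CPM of at least 1 had differences of 0.34 to 1.55. Genes were taken here only where the ranges of the groups were separate, so the lack of overlap was fixed by the choice. Cd27, a receptor through which T, B and NK cells receive survival signals, stood at 3.99, 6.94 and 5.09 CPM against 2.87, 3.37 and 2.33. The difference of 0.90 ± 0.22 had a 95% interval of 0.42 to 1.38. Lax1, an adaptor that dampens lymphocyte receptor signals, stood at 15.5, 20.2 and 15.7 against 10.6, 9.82 and 11.7 (0.68 ± 0.20, 95% interval 0.26 to 1.10). Cdkl1, a kinase related to cyclin-dependent kinases, had the widest gap of those named by this rule, at 20.3, 15.1 and 18.3 against 5.71, 5.03 and 7.58 (1.55 ± 0.43, 95% interval 0.64 to 2.46). Every CaP library had about 2 or more times the level of every PCL library, and leaving out single libraries gave 1.43 to 1.74. Dpep3, a membrane dipeptidase, differed by 1.15 ± 0.31, Kbtbd11 by 1.06 ± 0.30, Serpinb6b, a protease inhibitor, by 0.98 ± 0.28, and Ubxn11 by 0.74 ± 0.23. Smaller differences with a tight spread belonged to Abhd11 (0.51 ± 0.14), Ncald, a calcium sensor (0.53 ± 0.16), Map4k5, a stress kinase (0.47 ± 0.14), and Lpar6, a receptor for lysophosphatidic acid (0.34 ± 0.10).

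Among genes lower around CaP, taken by the same rule, Nxph4, a secreted ligand of the neurexin family, had the smallest p. It stood at 1.44, 1.42 and 2.52 CPM around CaP and 6.74, 3.84 and 4.5 around PCL, with a difference of -1.48 ± 0.35 (95% interval -2.23 to -0.73) and a range of -1.82 to -1.22 when single libraries were left out. Creb3l2, a membrane-bound transcription factor of the secretory pathway that is needed for cartilage matrix export, varied little within either group, at 26.9, 27.1 and 26.1 against 37.7, 36.7 and 38.4. Its difference of -0.49 ± 0.16 (95% interval -0.83 to -0.16) was -0.51 to -0.48 over the left-out libraries. Rps4y2, a ribosomal protein gene, stood at 4.56, 1.67 and 3 against 11.8, 10.1 and 9.83 (-1.78 ± 0.56), but it has a close copy in Rps4x, which stood at 652 ± 25 against 629 ± 46.8, and reads may be split between them, so its value is uncertain. Prr5, a component of the mTORC2 kinase complex, differed by -0.44 ± 0.12, Foxred2 by -0.70 ± 0.23, Spata6 by -0.73 ± 0.25, and Pex6, a peroxisome assembly factor, by -0.40 ± 0.14. The others were Camk2b, a calmodulin kinase (-0.60 ± 0.24), Crtc1, a CREB coactivator (-0.37 ± 0.15), Ift172, a carrier of cilium building blocks (-0.31 ± 0.12), Atp9b, a membrane lipid flippase (-0.29 ± 0.10), and Vps18, a lysosome tether (-0.23 ± 0.09).

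**Figure D3:**
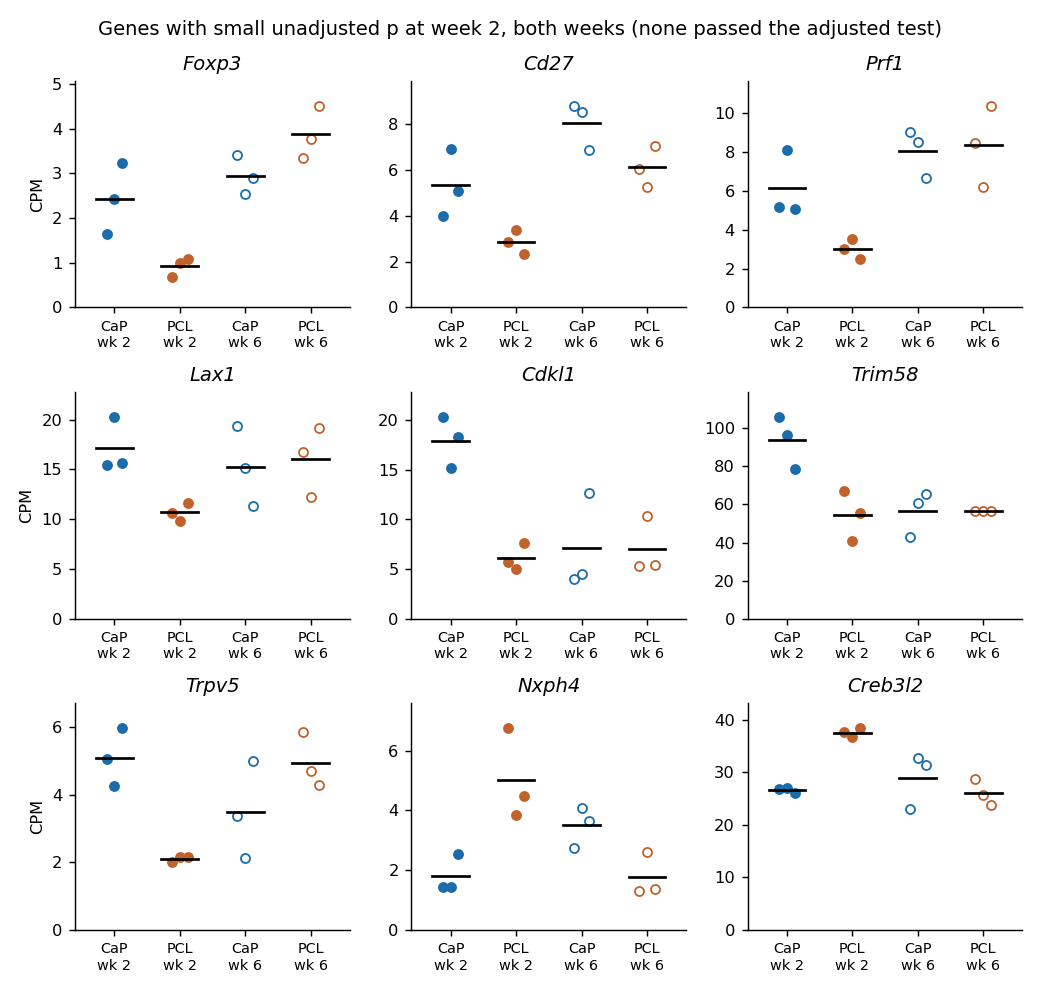
CPM (vertical axis, from 0) of 9 genes of small unadjusted p in each library of CaP (blue) and PCL (orange) at week 2 (filled) and week 6 (open), with black bars at the mean of 3 libraries. The 9 were taken from genes whose groups do not overlap at week 2, and those of week 6 overlap in all but Nxph4, which is on the opposite side there.

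Bone genes were spread on both sides of 0 and varied widely between libraries. Of 19 osteoblast genes 11 lay above 0 with a median of 0.11, 0 were separate and 0 had p under 0.05. Only 5 of the 19 intervals lay within 2-fold, and the median was -0.20 without CaP replicate 3 and 0.32 without PCL replicate 2, with 16 of 19 above 0. Runx2, the factor of osteoblast fate, stood at 45.8, 41 and 38.5 CPM against 34.8, 38.9 and 36.5. Only CaP replicate 1 lay clearly higher, and the difference of 0.19 ± 0.14 had an interval of -0.12 to 0.49. Col1a1 stood at 10960.1, 18573 and 25367 against 14804, 23464 and 18272 (-0.04 ± 0.40, interval -0.90 to 0.82), so that the libraries of each scaffold differed by more than 1.5 times among themselves. Bglap, osteocalcin, a late product of osteoblasts, stood at 249.7, 313 and 509 against 255, 471 and 356 (-0.02 ± 0.41). Spp1, osteopontin, which binds mineral and is also made by macrophages, stood at 394, 471 and 1039 against 260.1, 745 and 482, and its interval of -0.88 to 1.60 leaves room for a difference of about 3-fold towards CaP. Sp7, which acts after Runx2, differed by -0.35 ± 0.41, and Alpl, the phosphatase that frees phosphate for mineral, by 0.17 ± 0.27.

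Osteoclast genes had 6 of 13 members above 0, a median of -0.01 and 7 of 13 intervals within 2-fold. Acp5, the acid phosphatase used to stain osteoclasts, stood at 134, 201 and 135 CPM against 147, 165 and 120.1 (0.12 ± 0.29), Ctsk at 114, 168 and 131 against 91.1, 199.8 and 76.2 (0.17 ± 0.61), and Nfatc1, the factor that drives osteoclast formation, at 66, 69.1 and 62.9 against 69.3, 64.9 and 66.2. Of these, Nfatc1 was bounded most tightly, with an interval of -0.27 to 0.23. Mmp9, a gelatinase of osteoclasts and neutrophils, was lower around CaP without overlap, by a small -0.17 ± 0.24. Tnfrsf11b, osteoprotegerin, the decoy that blocks the osteoclast signal RANKL, stood at 1.69, 3.72 and 5.05 against 1.26, 1.35 and 1.83. CaP replicates 2 and 3 were above all PCL libraries and CaP replicate 1 was not, for a difference of 1.23 ± 0.61 (95% interval -0.06 to 2.53). At week 6 it was 1.5 ± 0.59. The fusion genes by which macrophages form giant cells on implants had a median of 0.06.

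Cartilage genes depended on 1 library. Of 16 members 11 lay below 0, with a median of -0.33. Without PCL replicate 2 the median was 2.47, which is over 5-fold towards CaP, and 15 of 16 members were above 0. Col2a1, the main cartilage collagen, stood at 1901, 1547 and 3759 CPM around CaP and 227, 7318 and 135 around PCL. PCL replicate 2 was thus the highest of the 6 libraries and the other PCL libraries the lowest, with all CaP libraries between them. The fitted difference was -0.09 ± 1.79, and 3.73 ± 2.14 without PCL replicate 2. Acan, the cartilage proteoglycan, stood at 114, 104 and 284 against 30.9, 496 and 83.9, Lect1, which keeps vessels out of cartilage, at 2.75, 2.3 and 4.65 against 0.575, 27.4 and 0.167, and Ihh, the growth-plate hedgehog, at 1.73, 1.09 and 1.58 against 0.268, 6.49 and 0.125. Over left-out libraries Lect1 ran from -2.11 to 3.09 and Ihh from -1.20 to 2.85. Sox6, a cofactor of the cartilage programme that red cell precursors also use, did not share the pattern, at 41.5, 32 and 41.8 against 36.9, 21.8 and 32.6. How much growth plate or callus cartilage entered each sample was not measured. Tendon and periosteum genes lay above 0 in 7 of 8, led by Tnmd, tenomodulin, at 2.1, 1.55 and 6.31 against 0.23, 1.11 and 1.08 (2.04 ± 0.65, 95% interval 0.66 to 3.41). CaP replicate 3 was the highest in these genes, and without it the list median went from 0.57 to -0.19.

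**Figure D4:**
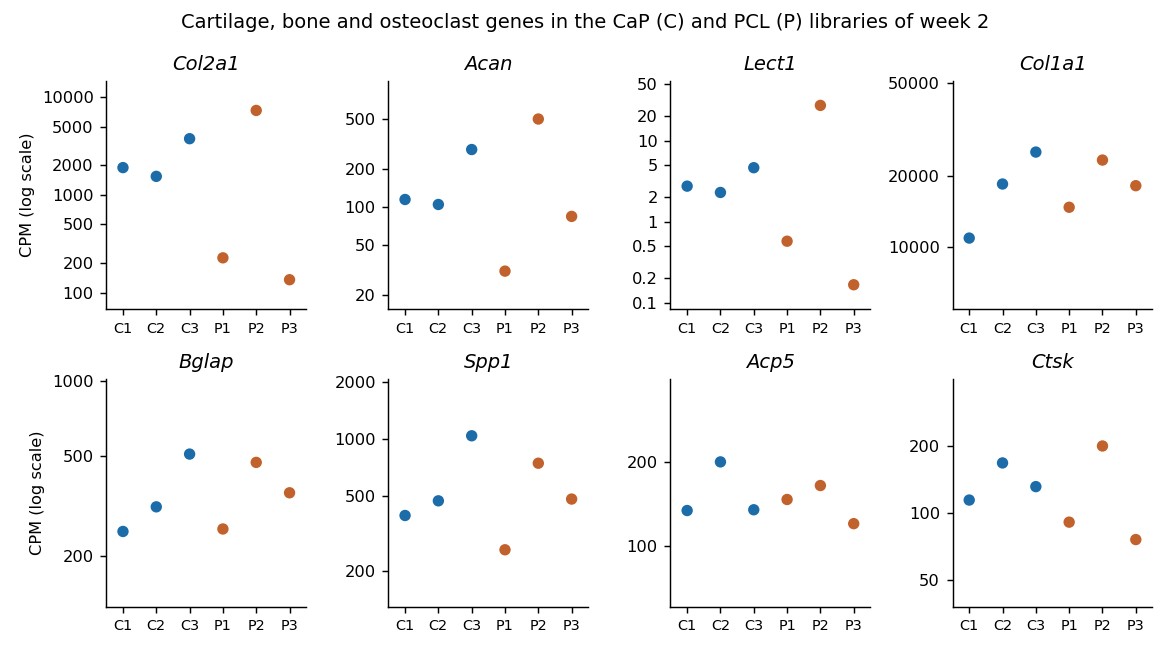
CPM on a log axis (vertical, a separate range per gene) of cartilage genes (Col2a1, Acan, Lect1), osteoblast genes (Col1a1, Bglap, Spp1) and osteoclast genes (Acp5, Ctsk) in the 3 CaP (C, blue) and 3 PCL (P, orange) libraries of week 2. In the cartilage genes PCL replicate 2 is above, and PCL replicates 1 and 3 are below, all CaP libraries, while the osteoblast and osteoclast genes of both scaffolds overlap.

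Genes that handle calcium and phosphate, listed because the scaffolds differ in this mineral, had a median of 0.12, with 11 of 13 above 0 and 10 intervals within 2-fold, but without PCL replicate 1 the median was -0.0034 with 6 above 0. Trpv5, an epithelial calcium channel that osteoclasts also carry, stood at 5.06, 4.27 and 5.96 CPM against 1.99, 2.14 and 2.17. Each CaP library had about 2 or more times the level of each PCL library, for a difference of 1.28 ± 0.39 (95% interval 0.44 to 2.12), or 1.14 to 1.38 over left-out libraries. At week 6 it was -0.50 ± 0.39. Mgp, an inhibitor of calcification, stood at 31, 42 and 95.9 against 22.5, 37.2 and 39.9, with only CaP replicate 3 high. Xpr1, a phosphate exporter (-0.11 ± 0.11), and Stim1, the calcium sensor of the endoplasmic reticulum (-0.09 ± 0.10), were close to 0 with narrow errors.

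The lean of matrix and growth factor genes rested on CaP replicate 3 and PCL replicate 1. Fibrillar matrix genes lay above 0 in 16 of 17 (median 0.13), matrix proteases in 14 of 19 (median 0.15) and TGF-beta and BMP genes in 14 of 21 (median 0.12), with 0 at p under 0.05 in all 3 lists. Without CaP replicate 3 the medians were -0.23, -0.10 and -0.05. Without PCL replicate 1 they were -0.14, 0.02 and -0.03, with 2 of 17, 10 of 19 and 9 of 21 members above 0. Mmp13, the collagenase of hypertrophic cartilage and osteoblasts, stood at 37.9, 109 and 77.1 CPM against 31.7, 64.4 and 36.7. Bmp2, a bone-inducing ligand, stood at 1.32, 1.97 and 3.16 against 0.92, 2.53 and 1.62, Tgfb1, a growth factor stored in bone matrix, at 264, 289 and 395 against 276, 330.1 and 302, and Vegfa, the vessel growth factor, at 81.2, 91.9 and 208 against 84.1, 170.4 and 114. In Bmp2, Tgfb1 and Vegfa, CaP replicate 3 was the highest of the 6 libraries and the others overlapped. The Wnt list had a median of -0.16 (0.01 without PCL replicate 2), with Sfrp4, a secreted Wnt antagonist, at 13.9, 10.8 and 11.5 against 7.05, 5.86 and 7.58 without overlap (0.82 ± 0.54).

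Myeloid genes were spread around 0. Monocyte and macrophage genes had a median of 0.02 with 11 of 17 intervals within 2-fold, and Cd68, a lysosomal marker of macrophages, stood at 136, 138 and 170.2 CPM against 152, 158 and 173. M1-type and M2-type genes, the inflammatory and repair programmes of macrophages, had medians of 0.19 and 0.18, with 0 separate in either. The M1-type median was -0.07 without CaP replicate 3, with 5 of 14 above 0, and 0.43 without PCL replicate 2. Il1b, the inflammatory interleukin, stood at 242, 451 and 899 against 247, 575 and 414, Arg1, the arginine-degrading enzyme of repair macrophages, at 2.96, 6.82 and 9.86 against 1.46, 5.58 and 3.5, and Mrc1, the mannose receptor, at 73.5, 61.4 and 60.7 against 73.4, 46.2 and 76.6. Their intervals were -1.27 to 2.01, -1.46 to 3.26 and -0.83 to 0.82, and they rest on a spread pooled over all 18 libraries. That spread takes in ACPC-NP at week 2, where Il1b stood at 554, 1095 and 9502 CPM and Arg1 at 21.1, 176 and 1540. Little can be said of Il1b and Arg1 from this fit. Replicate 3 of ACPC-NP at week 2 was also far the highest of its group in other named genes. In that group Mrc1 stood at 63.8, 116 and 266 CPM and Vegfa at 123, 152 and 976. Ncr1 stood there at 4.76, 8.01 and 63.7 and Pf4 at 48, 84.9 and 211. The errors of these genes take in that spread too. Mature neutrophil genes had a median of -0.07 with 13 of 16 intervals within 2-fold, and granulocyte progenitor genes one of 0.11, or -0.13 without CaP replicate 1. Mpo, the peroxidase of their granules, stood at 1794, 1262 and 808 against 1438, 775 and 1181. In the eosinophil and mast cell list, with a median of 0.35, Prg3, an eosinophil granule protein, was separate at 701, 665 and 644 against 628, 221 and 517, and Prg2, its close relative, overlapped (0.43 ± 0.39). Without CaP replicate 2 that median was -0.25 with 5 of 16 above 0, and without PCL replicate 2 it was 0.08. The macrophages that nurse erythroblasts, read by an 11-gene list, had a median of 0.16 and the lowest score, -0.71, in PCL replicate 2, which was also lowest in erythroid genes. Without that library the median was -0.05. Platelet genes had a median of 0.12, or -0.03 without PCL replicate 2, with Pf4 at 0.30 ± 0.39.

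Skeletal muscle genes lay below 0 in 19 of 20, with a median of -0.42 and 4 separate and lower (beside 2.93% of all genes), and the median was between -0.60 and -0.30 over left-out libraries. Their summed level was 105 to 119 CPM around CaP and 132 to 187 around PCL. Most members were scarce: Myh4, a fast myosin, was at most 0.708 CPM in any of the 6 libraries. Pygm, muscle glycogen phosphorylase, had the smallest p of the list, at 27.7, 29.8 and 35.7 against 28.7, 93.6 and 28.6, and only PCL replicate 2 was high. Its difference of -0.69 ± 0.35 was 0.12 without that library. Muscle next to the radius is a neighbour of the sampled bone, and its part in other results was not tested. Smooth muscle (median 0.28) and endothelial genes (median 0.09) were highest in CaP replicate 3, and without it their medians were -0.21 and -0.15. Adipoq, the fat cell hormone adiponectin, was separate and lower around CaP at 0.452, 0.335 and 0 against 0.69, 0.713 and 1.04, at about 1 CPM or less.

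Some general programmes of the cell had narrow intervals and others did not. All 25 proliferation genes, all 21 oxidative phosphorylation genes and all 18 cholesterol synthesis genes had intervals within 2-fold, with medians of 0.05, 0.01 and -0.07, and 22 of 24 ribosomal protein genes did (median 0.01). Hypoxia and glycolysis genes had a median of -0.04 and oxidative stress genes one of 0.05, with 12 of 25 and 8 of 19 intervals within 2-fold. Targets of NF-kappa B, the factor of inflammatory signalling, had a median of 0.04 and 1 of 14 intervals within 2-fold, and their median was -0.35 without CaP replicate 3. Interferon response genes lay above 0 in 17 of 19 (median 0.36), but Ifit1, an antiviral effector, stood at 413, 152 and 189.8 CPM against 161, 35 and 188, with CaP replicate 1 high and PCL replicate 2 low. Without CaP replicate 1 the interferon median was -0.05 and without PCL replicate 2 it was 0.13, and 6 of 19 intervals were within 2-fold. Heat shock genes lay below 0 in 11 of 14 (median -0.17), with Hspa8, a constant chaperone, separate at 531, 485 and 543 against 599, 777 and 611. Without PCL replicate 2 their median was -0.04 with 6 of 14 above 0, and 7 of 14 intervals were within 2-fold. Immediate early genes, which respond within minutes and also to tissue digestion, had a median of -0.0014, with 5 of 22 intervals within 2-fold. Their scores were -0.53, -0.07 and 0.52 in the CaP libraries and -0.35, 0.40 and 0.02 in the PCL libraries, in the same order as the first principal component within each scaffold. Their part in other results was not tested.

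**Figure D5:**
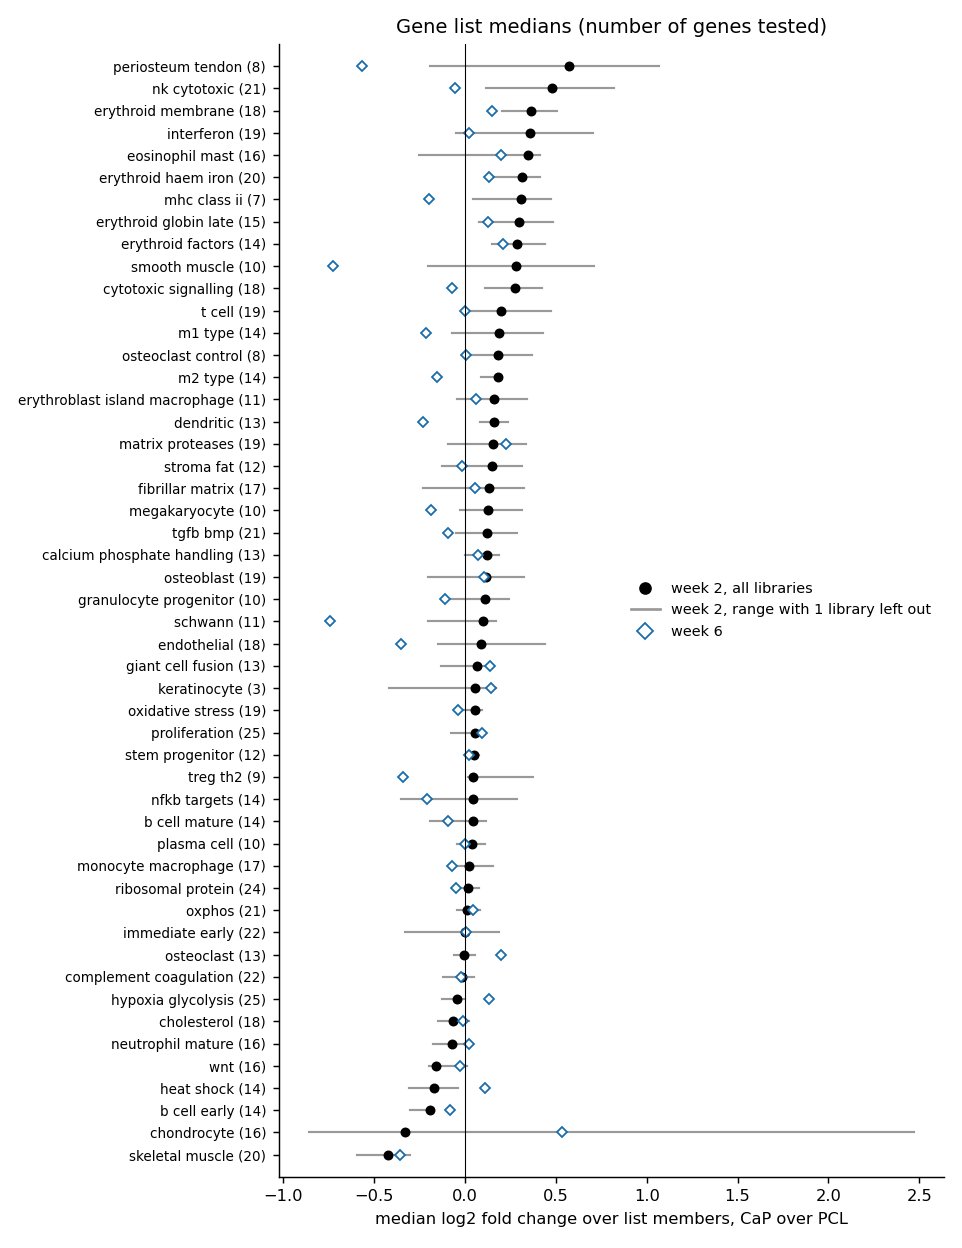
Median log2 fold change of CaP over PCL over the members of each gene list (horizontal axis), 1 line per list with its number of genes tested, at week 2 (black dots), its range with each of the 6 libraries left out in turn (grey lines) and at week 6 (open diamonds). The 4 erythroid lists stay above 0 and the muscle and early B cell lists below 0 over every left-out library. Other lists also keep their sign, among them NK and cytotoxic (0.11 to 0.82), cytotoxic signalling (0.11 to 0.42), MHC class II (0.05 to 0.47), dendritic (0.08 to 0.23) and heat shock (-0.31 to -0.04). The cartilage list runs from -0.86 to 2.47.

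The same scaffolds at week 6, in other libraries, also gave 0 called genes of 11814 (0%), with 304 at an unadjusted p under 0.05 (2.57%). In the erythroid lists 56 of 67 members lay above 0 at week 6, with a median of 0.15, and 55 of the 67 had the same sign at both weeks. Klf1 (0.21) and Slc4a1 (0.12) were above 0 at week 6, while Trim58 (-0.008), Tfrc (-0.047) and Alas2 (-0.042) were just below. For Klf1 (158 CPM) and Slc4a1 (2866) PCL replicate 2 of week 6 was the lowest of the CaP and PCL libraries of that week. Over all genes tested 5487 of 11814 lay above 0 at week 6, and 6397 had the same sign at both weeks. Muscle genes had a median of -0.36 at week 6 and early B cell genes one of -0.09. The NK list stood at -0.06, MHC class II at -0.20 and the tendon list at -0.57, each with the opposite sign to week 2. No test was made of whole lists between the weeks.

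Whether the scaffold difference itself differed between weeks 2 and 6 was tested gene by gene, as the difference at week 2 minus that at week 6. EdgeR called 0 of 11814 genes (0%), with 198 at an unadjusted p under 0.05 (1.68%), while DESeq2 called 2, Nxph4 and Pcp4l1. Nxph4 gave the smallest p in edgeR, and the other genes were taken by the smallest p at a mean log2 CPM of at least 1. Its difference was -1.48 at week 2 and 0.99 ± 0.35 at week 6, which are -2.47 ± 0.50 apart. Every CaP library lay below every PCL library at week 2 and above every PCL library at week 6. Pcp4l1, a relative of the calmodulin-binding Pcp4, was named after its value was seen, at 37.8, 0.711 and 1.81 CPM against 0.383, 0.792 and 0.999 at week 2, where only CaP replicate 1 stood out. Wnt5a, a ligand of bone and cartilage growth, stood at 2.43, 6.73 and 6.71 CPM against 8.2, 13.3 and 6.5 at week 2, with overlap, and its difference was -0.82 at week 2 and 2.14 ± 0.62 at week 6. The difference between the weeks was 1.78 ± 0.55 for Trpv5 and, for Il20rb, a receptor chain for cytokines of the interleukin 20 family, -2.37 ± 0.74. Smaller values were those of Cldn12, a tight junction protein (0.56 ± 0.16), Polr3e, a subunit of RNA polymerase III (0.45 ± 0.14), Egfl8 (1.15 ± 0.39) and Tbcel, a tubulin cofactor relative (0.91 ± 0.31). None passed the adjusted threshold in edgeR.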

How the data were processed

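Rat mRNA libraries were grouped by their titles. Upstream steps, per the submitters' processing notes, were bcl2fastq 2.20.0, alignment to Rnor_6.0 by STAR 2.7.9a and counting by featureCounts of Subread 2.0.1. The sources used here state neither the annotation nor the strand setting. The authors deposited counts of reads per gene symbol, used as deposited. The deposited normalised table was not used. Genes were filtered with filterByExpr (minimum count 10, minimum total 15), normalised by TMM and tested with edgeR 4.0.16 in R 4.3.3 (robust quasi-likelihood, a mean per group over all 18 libraries, which held 18880604 to 27186587 counts, 12 residual degrees of freedom, Benjamini-Hochberg threshold 0.05). The common biological coefficient of variation estimated by edgeR over all 18 libraries was 26.0%. Log2 CPM used a prior count of 2. The script was also run on counts simulated without an outlying library, which checks the code and not the results given here. Alternatives used DESeq2 1.42.0, limma 3.58.1 and other settings listed in the closing section. RefSeq's GRCr8 table supplied names (14821 of 17337 symbols found) and promoter sequences.

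The comparison, the 50 gene lists (869 symbols, of which 65 had no match and 14 matched by an older name) and the panel were chosen with earlier results of these data known. Genes were named by rule: up to 12 per direction with the smallest p, a mean log2 CPM of at least 1, separate ranges and a symbol that is no placeholder; the 4 members of smallest p of a list described; a fixed panel of 37; and the 8 smallest p of the interaction at that level and with such a symbol. Lists were described by counts and medians, with no test of a list. Some genes that this rule names are not reported here.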

Additional observations from a re-analysis of the deposited data

How the results depend on the processing

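No gene was called between CaP and PCL at week 2 in edgeR, under DESeq2, voom with quality weights, DESeq2's size factors, no low-count filter, only the 6 libraries compared, the replicate block, or any left-out library. Genes at an unadjusted p under 0.05 numbered 183, 532 under voom and 279 without ACPC-NP week 2 replicate 3, which enters only through the pooled spread. With each of the 6 libraries compared left out in turn they numbered 146 to 265. DESeq2 called 2 genes in the interaction, Nxph4 (-2.48, adjusted p = 0.00904) and Pcp4l1 (9.24, adjusted p = 0.00904). The replicate number as a block gave 0 calls and 232 genes at p under 0.05. Deviations of same-numbered libraries correlated at 0.379, -0.0111 and 0.133, so the numbers were not taken as pairs, and not every library correlated best with its own number.

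Of 65 genes named by smallest p over all genes, from the panel or from the interaction, 7 changed sign in a fit that kept all 6 libraries: under voom Col1a1 was at 0.038, Bglap at 0.0064, Nfatc1 at 0.0056, Acan at 0.76, Col2a1 at 2.58 and Vegfa at -0.057; under the block Bglap was at 0.0036, Mrc1 at 0.048, Acan at 0.45, Col2a1 at 1.59 and Vegfa at -0.19. With a library left out, 18 changed sign and ranged as follows: Col1a1 -0.36 to 0.22, Bglap -0.37 to 0.22, Spp1 -0.20 to 0.78, Acp5 -0.11 to 0.23, Ctsk -0.077 to 0.72, Nfatc1 -0.061 to 0.0099, Alas2 -0.0056 to 0.46, Gzmb -0.82 to 0.042, Ms4a1 -0.38 to 0.49, Il1b -0.26 to 0.71, Mrc1 -0.20 to 0.12, Mpo -0.13 to 0.43, Elane -0.13 to 0.43, Acan -0.91 to 1.55, Col2a1 -0.65 to 3.73, Vegfa -0.51 to 0.36, Bmp2 -0.052 to 0.76 and Tgfb1 -0.14 to 0.17. Counting the 4 leading members of every list as well, 58 of 245 genes changed sign with a library left out and 20 in a fit that kept all 6, among them Lect1 (-2.11 to 3.09), Ihh (-1.20 to 2.85), Pygm (-0.99 to 0.12) and Il2ra (-0.059 to 0.99) with a library left out, and Lect1 (2.02), Ihh (1.86) and Gata3 (0.021) under voom and Lect1 (0.53) and Ihh (0.30) under the block. The cause was not tested. The erythroid median was 0.15 to 0.46 over left-out libraries and 0.18 under voom, above 0 in each setting. The stated intervals hold the differences compatible with 3 libraries a side. They are not limits of detection and are not adjusted for the number of genes tested.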
